A study of Mus musculus with 54 samples.

Results

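Motile cilia are driven by the axoneme, a ring of doublet microtubules that carries rows of dynein motors. The genes described here encode its parts: the axonemal dynein heavy chains, which are the motors, the dynein light intermediate chain Dnali1, the subunits of the nexin-dynein regulatory complex that links neighboring doublets, the radial spokes that pass signals from the central pair of microtubules to the motors, the tektins that line the doublet, and the cilia and flagella associated proteins (CFAP). Foxj1, the forkhead transcription factor that switches on the motile cilium program, was added. In the adult brain, motile cilia are known from the ependymal cells that line the ventricles. The epithelium of the choroid plexus is ciliated too. Members were the protein-coding genes of the count table whose symbols begin with Dnah, Dnai, Cfap, Drc or Tekt followed by a digit, or with Rsph, together with Dnali1 and Foxj1. These were 63 of 21560 protein-coding genes. They comprised 5 outer arm heavy chains, 10 inner arm heavy chains, Dnali1, 3 regulatory complex genes, 8 radial spoke genes, 5 tektins, 30 CFAP genes and Foxj1. The dynein intermediate chain genes are listed under the older symbols Dnaic1 and Dnaic2 and fell outside the rule.

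RNA was sequenced from cortex (Cx), striatum (St) and cerebellum (Cb) of 10 Mbd5+/GT and 8 WT mice, with 1 library per mouse and region, 54 in all. All mice were 8 weeks old and on a C57BL/6 background. Mbd5+/GT mice carry 1 copy of a gene trap in intron 2 of Mbd5, a hypomorphic allele present in every cell of the animal. The Mbd5+/GT group held 5 females and 5 males and the WT group 5 females and 3 males. Litter 1 (3 Mbd5+/GT, 3 WT) was all female, litter 2 (4 Mbd5+/GT, 1 WT) all male, and litter 3 (3 Mbd5+/GT, 4 WT) held both sexes. The libraries held 25295973 to 49027399 reads on genes (median 29073866). In edgeR's quasi-likelihood fit with surrogate variables, Mbd5 was lower in Mbd5+/GT mice in cortex (log2FC = −0.49 ± 0.05 SE, adjusted p = 0.00012), striatum (−0.51 ± 0.05, adjusted p = 9.4e-05) and cerebellum (−0.34 ± 0.05, adjusted p = 0.0091).

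The dissections were not uniform, and 4 libraries went against their labels, meaning that markers of their own region were low in them. The cerebellum library of Mbd5+/GT mouse M755 had a summed level of 6 cerebellum markers of 113 CPM (counts divided by library size, a unit that allows libraries to be compared) and that of WT mouse M754 of 1576 CPM, against medians of 5125 and 5036 CPM in Mbd5+/GT and WT cerebellum. The same libraries had the highest summed Hox gene levels, 583 and 172 CPM, where the third, from WT mouse M761, had 66.8 CPM. Hox genes mark the hindbrain and spinal cord. In striatum, the 6 striatum markers summed to 126 CPM in WT mouse M754 and to 383 CPM in WT mouse M761, where the median of WT striatum was 2708 CPM. Levels and tests below include these libraries unless stated, and values without them follow where they differ. Other libraries were mixed too. In cortex, the striatum markers summed to 1293, 1287, 1242 and 1032 CPM in WT mice M752, M761, M765 and M759. No Mbd5+/GT cortex library was above the 841 CPM of mouse M766. In mice M752, M761, M765 and M766 the cortex markers summed to less (816, 737, 955 and 834 CPM). The striatum library of Mbd5+/GT mouse M756 held 1352 CPM of cortex and 1086 CPM of striatum markers. The part of this in the comparisons below was not tested.

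The genome sequence upstream of some members is shown because RFX factors, which act with Foxj1 on motile cilium genes, bind the X-box, a near-palindrome that contains the half-site GTTGCC. Of the 63 members, 51 had at least 1 RefSeq start site window of the GRCm38.p6 assembly, and the 250 bases before each start were searched on both strands. GTTGCC occurred in 18 of 58 member windows (31.0%), compared with 10.4% of 32851 windows of all genes. Those windows cover 27025 genes, more than the 21560 protein-coding genes of the count table, whereas all members are protein-coding. The near-identical copies Dnah7a, Dnah7b and Dnah7c are counted separately among the 16 member genes with a half-site. The longer X-box GTTNCCNNGGNAAC, which can contain the half-site, occurred in 1 member window (1.72%), that of Cfap298, compared with 0.374% of all windows. The forkhead motif TGTTTAC occurred in 4 member windows (6.90%), those of Cfap20, Cfap43, Dnah17 and Tekt3, compared with 3.17% of all. These are letter matches and not measured binding. Dnah10, Dnah9 and Tekt1 are shown as the inner arm heavy chain, outer arm heavy chain and tektin whose levels followed Foxj1 most closely. Cfap44 (smallest cortical p) and Drc1 (lower in Mbd5+/GT cortex only at an unadjusted p under 0.05 by edgeR) were picked after their values were seen. The Cfap298 site is shown for its full X-box. All are in the direction of transcription, capitals mark the motif matches, and the coordinates are GRCm38.
Dnah10, chr5:124724835-124725084, plus strand: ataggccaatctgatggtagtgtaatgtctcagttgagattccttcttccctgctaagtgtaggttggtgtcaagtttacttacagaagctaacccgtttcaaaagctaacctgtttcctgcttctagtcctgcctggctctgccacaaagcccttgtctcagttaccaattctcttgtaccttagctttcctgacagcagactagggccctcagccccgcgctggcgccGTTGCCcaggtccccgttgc
Dnah9, chr11:66168552-66168801, minus strand, no match: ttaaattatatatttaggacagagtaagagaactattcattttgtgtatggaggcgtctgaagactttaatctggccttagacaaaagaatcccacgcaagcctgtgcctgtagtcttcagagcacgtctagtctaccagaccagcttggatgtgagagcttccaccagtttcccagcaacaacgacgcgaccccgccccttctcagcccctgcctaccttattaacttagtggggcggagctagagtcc
Tekt1, chr11:72361883-72362132, minus strand: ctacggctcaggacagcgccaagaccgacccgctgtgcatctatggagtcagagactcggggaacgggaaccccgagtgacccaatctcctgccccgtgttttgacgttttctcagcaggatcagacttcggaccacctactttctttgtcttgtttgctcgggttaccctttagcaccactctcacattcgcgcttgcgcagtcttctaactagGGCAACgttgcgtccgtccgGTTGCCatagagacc
Cfap44, chr16:44394549-44394798, plus strand: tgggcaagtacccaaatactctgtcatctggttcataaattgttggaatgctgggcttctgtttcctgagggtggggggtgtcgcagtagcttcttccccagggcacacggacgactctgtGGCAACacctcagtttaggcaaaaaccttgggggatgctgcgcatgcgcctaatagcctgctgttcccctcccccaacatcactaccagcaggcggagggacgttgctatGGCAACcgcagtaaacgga
Drc1, chr5:30281143-30281392, plus strand: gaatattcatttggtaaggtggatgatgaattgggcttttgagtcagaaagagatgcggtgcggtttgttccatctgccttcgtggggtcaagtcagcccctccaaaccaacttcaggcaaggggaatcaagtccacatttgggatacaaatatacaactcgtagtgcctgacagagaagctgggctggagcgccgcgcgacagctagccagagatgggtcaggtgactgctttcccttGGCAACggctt
Cfap298, chr16:90935016-90935045, minus strand: gggttttgGTTGCCCGGGCAACagctactt

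In these windows, positions were counted back from the RefSeq start, which for Tekt1 lies 560 bases from the start of the annotated gene and for the others within 5 bases. The half-site was found in Dnah10 (bases 20 to 15 before it), Tekt1 (bases 35 to 30 and 15 to 10), Cfap44 (bases 129 to 124 and 19 to 14) and Drc1 (bases 11 to 6). Other members with a half-site included Dnah7a, Dnah7b, Dnah7c, Tekt2, Cfap20, Cfap46 and Cfap161, and no outer arm heavy chain or radial spoke gene was among them. These subfamilies are small and Rsph1 had no window, so no difference between subfamilies is drawn from this.

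Most of these genes were expressed at low levels in all 3 regions, and most were highest in striatum. Levels are compared between genes per length, in RPKM, the CPM divided by the length of the exons in kilobases. The median over the members of the mean level was 0.460 RPKM in cortex, 0.770 RPKM in striatum and 0.376 RPKM in cerebellum. By mean level over all libraries of a region, 48 members were highest in striatum, 7 in cortex and 8 in cerebellum. Members at 1 RPKM or more numbered 20 in cortex, 27 in striatum and 19 in cerebellum, while 12, 4 and 14 were under 0.1 RPKM. Cfap97d1 had no count in any WT library, and Dnah14 stayed under 0.01 RPKM in every WT group mean. Without the 4 libraries, 46 members were highest in striatum, 7 in cortex and 10 in cerebellum. Of the WT means over 0.1 RPKM, 1 of 58 in striatum (Dnah11, from 0.307 to 0.181 RPKM) and 1 of 49 in cerebellum (Tekt5, from 2.29 to 1.36 RPKM) then moved by over 1.5 times.

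The regulator Foxj1 (ENSMUSG00000034227, chr11:116330704-116335399) was at 6.30 ± 2.13 RPKM (SD, n = 8) in WT striatum, 3.43 ± 2.14 RPKM in WT cerebellum and 2.12 ± 0.274 RPKM in WT cortex. Mbd5+/GT mice gave 6.18 ± 1.69, 3.25 ± 2.85 and 2.64 ± 0.829 RPKM (SD, n = 10) in striatum, cerebellum and cortex. Without the 4 libraries that went against their labels, Foxj1 was at 6.19 ± 1.52 RPKM (n = 6) in WT striatum and at 2.74 ± 0.892 (n = 7) and 2.38 ± 0.769 RPKM (n = 9) in WT and Mbd5+/GT cerebellum. Striatum thus stayed highest in both genotypes, while the order of Mbd5+/GT cerebellum and cortex depended on the library of mouse M755. In CPM, the WT libraries ran from 4.48 to 6.95 (median 5.57) in cortex, from 9.06 to 25.7 (median 15.2) in striatum and from 3.89 to 21.8 (median 7.45) in cerebellum. Every WT striatum library was above every WT cortex library, while cerebellum overlapped both.

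Among the motors, the outer arm heavy chains of WT cortex were led by Dnah9 (0.296 ± 0.0361 RPKM) and Dnah5 (0.274 ± 0.0854 RPKM), and those of cerebellum by Dnah11 (1.87 ± 0.815 RPKM; n = 8 for all WT levels). Dnah8 and Dnah17, best known from sperm, were under 0.05 RPKM in each WT region mean. The inner arm heavy chain Dnah1 led in WT striatum (1.43 ± 0.334 RPKM) and cortex (0.909 ± 0.211 RPKM) but was at 0.125 ± 0.0908 RPKM in cerebellum. There, Dnah6 (1.19 ± 0.396 RPKM) and Dnah7b (1.02 ± 0.381 RPKM) led instead. Thus the most abundant heavy chains of the cerebellum were not those of the forebrain regions.

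The other structural groups were less uniform in level. In the regulatory complex, Drc1 reached 10.2 ± 1.63 RPKM in WT striatum and 7.43 ± 1.03 RPKM in WT cortex, and 1.12 ± 0.236 RPKM in WT cerebellum. Drc3 was at 3.04 ± 0.792, 2.79 ± 0.337 and 1.19 ± 0.457 RPKM in the same order. Drc7 was at 2.30 ± 2.27, 0.330 ± 0.137 and 1.06 ± 0.999 RPKM, so its SD was close to its mean in striatum and cerebellum. Among radial spoke genes, the spoke head genes Rsph9 (8.35 ± 3.07 RPKM) and Rsph1 (6.18 ± 3.70 RPKM) were highest in striatum, whereas Rsph10b was near 3 RPKM throughout (2.96 ± 0.486 in cortex, 2.89 ± 0.553 in striatum, 3.11 ± 0.383 in cerebellum). Rsph10b has exons on the same strand as Pms2, and the counts of the 2 genes may mix.

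The CFAP group held the highest and the lowest members. Cfap36 (31.5 ± 3.70 RPKM in cortex, 33.7 ± 2.33 in striatum, 28.4 ± 2.07 in cerebellum), Cfap298, a dynein assembly protein (13.7 ± 2.09, 18 ± 3.08 and 12.4 ± 2.42 RPKM), and Cfap20, a protein of the doublet inner junction (8.07 ± 0.918, 11.6 ± 1.53 and 7.03 ± 1.2 RPKM), had the highest WT means of the group. Their levels differed little between mice. Cfap97 came next (6.37, 4.67 and 6.52 RPKM) and was close to Cfap20 in cerebellum. Of the tektins, Tekt5 (5.45 ± 1.10 RPKM in striatum, 4.57 ± 1.54 in cortex, 2.29 ± 2.70 in cerebellum) was above Tekt1 (2.44 ± 1.54, 0.766 ± 0.205 and 0.852 ± 0.297 RPKM) and Tekt2 (1.72 ± 0.373, 1.13 ± 0.248 and 0.807 ± 0.129 RPKM).

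**Figure D1:**
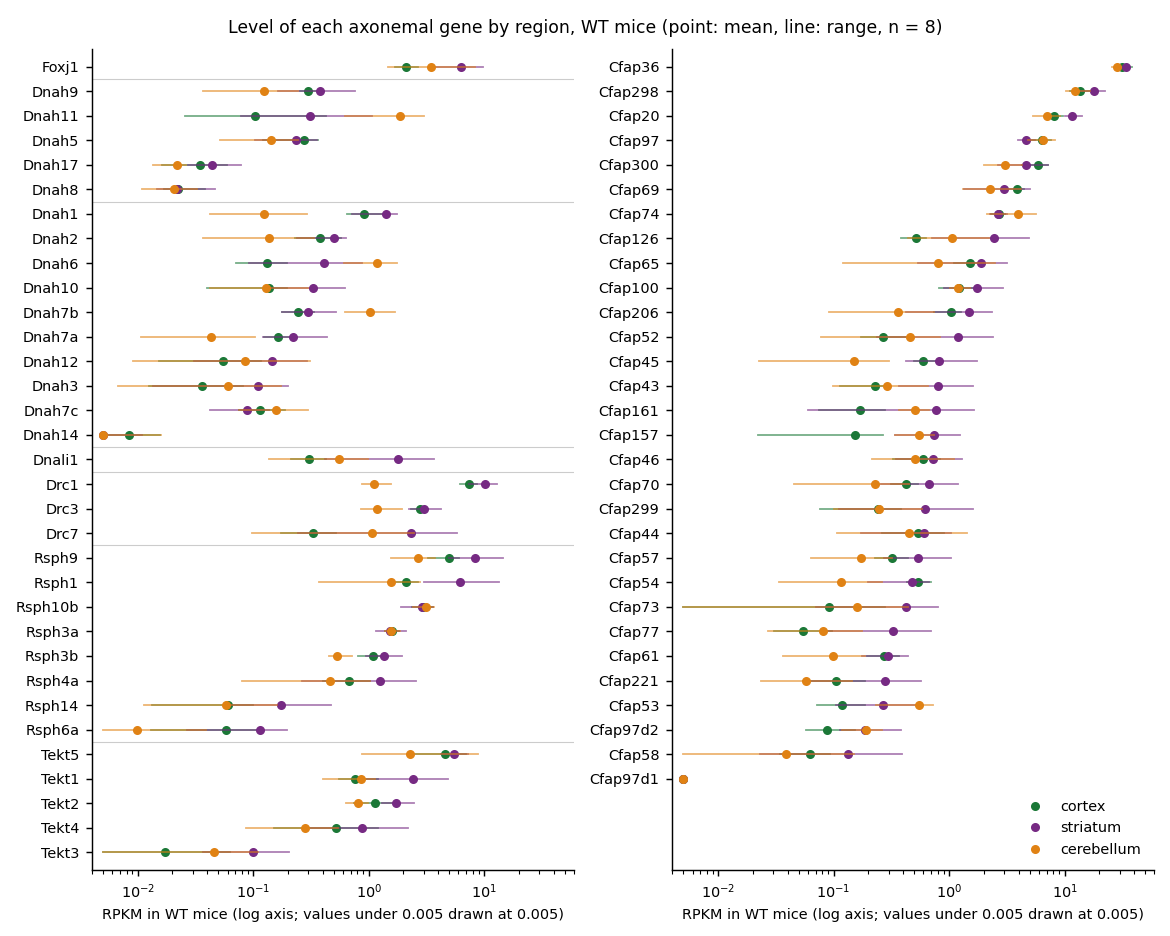
Levels of the members in WT cortex, striatum and cerebellum, by subfamily, in RPKM on a log axis; points are means of 8 libraries, lines run from the lowest to the highest library, and values under 0.005 RPKM are drawn at 0.005. Cfap36 stands highest in all 3 regions, Dnah1 and Drc1 sit lower in cerebellum, and Dnah11 and Dnah6 sit higher there.

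In WT mice, the comparison of cortex with striatum went almost entirely 1 way. Of 62 members tested in a fit over all 54 libraries, 30 were lower in cortex (adjusted p under 0.05) and 1, Cfap97 (log2 difference 0.45 ± 0.10, adjusted p = 0.0002), was higher. Of all genes tested, 47.0% passed, 22.7% lower and 24.4% higher. The median log2 difference was −0.63 over the members and 0.00 over all genes. Dnali1 ran from 0.451 to 0.912 CPM (median 0.624) in WT cortex and from 0.900 to 7.89 CPM (median 3.14) in WT striatum, so the groups met at a single striatum library; the difference was −2.55 ± 0.40 (adjusted p = 2.4e-06). Drc7 ran from 0.520 to 1.56 CPM (median 0.929) in cortex and from 0.731 to 17.5 CPM (median 3.75) in striatum, an overlap with a wide striatal spread (−2.80 ± 0.66, adjusted p = 0.00061). Cfap157, a basal body protein, ran from 0.0397 to 0.474 CPM (median 0.266) and from 0.609 to 2.23 CPM (median 1.17), with no overlap (−2.25 ± 0.32, adjusted p = 4.0e-07). Cfap77 was lower by a similar amount (−2.54 ± 0.45, adjusted p = 1.7e-05). Foxj1 itself was lower in cortex (−1.57 ± 0.30, adjusted p = 4.6e-05). Tekt3 also passed the test, on 0 to 3 counts in each WT cortex library and 2 to 11 in striatum, so that the size of its difference is not given.

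By subfamily, the members lower in cortex were 1 of 5 outer arm heavy chains, 4 of 10 inner arm heavy chains, Dnali1, 2 of 3 regulatory complex genes, 3 of 8 radial spoke genes, 3 of 5 tektins and 15 of 29 CFAP genes. Within the CFAP genes, 5 of 6 that sit inside the doublet microtubule were lower (median −1.66), compared with 1 of 6 of the central apparatus (median −0.13). The lists of other genes moved alongside, although the ependymal list and the list of other motile cilium genes share Ak7, Dynlrb2 and Hydin. All 12 ependymal markers tested were lower in cortex (median −1.99), and 6 of 12 choroid plexus markers were, with all 12 differences negative (median −2.21). Lower in cortex too were 30 of 43 other motile cilium genes, with 2 higher (median −0.76), and 8 of 13 regulators of multiciliated cell differentiation, with 1 higher. Of 47 genes of the primary cilium and intraflagellar transport, 14 were higher and 15 lower (median −0.03). In bulk tissue, fewer ciliated cells and less RNA per cell cannot be told apart.

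Cerebellum differed from both other regions in which heavy chains it expressed. Compared with WT striatum, 41 of 62 members were lower and 7 higher, where 65.5% of all genes passed (32.6% lower and 32.9% higher), with a median of −1.23 against −0.02 over all genes. The 7 were Dnah11, Dnah7b, Dnah6, Cfap53, Dnah7c, Cfap74 and Cfap97, and all others that passed were lower. Compared with WT cortex, 21 members were lower and 11 higher (27.6% and 28.2% of all genes; median −0.17), a total of 32 of 62 that is close to the 55.8% of all genes called. Of 12 ependymal markers, 10 were lower and 1 higher in cerebellum than in striatum (median −1.71), and 1 was lower and 3 higher than in cortex (median 0.68). Of 12 choroid plexus markers, 0 passed against striatum by edgeR (0 also at an unadjusted p under 0.05; median −0.04), while 6 were higher than in cortex, with all 12 differences positive (median 2.34). Their part in the differences of the members was not tested.

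The outer arm heavy chain Dnah11 (chr12:117877982-118199043) ran from 8.95 to 43.7 CPM (median 28.0) in WT cerebellum, from 0.371 to 6.22 CPM (median 0.744) in cortex and from 1.14 to 15.6 CPM (median 3.14) in striatum. All cerebellum libraries were above all cortex libraries. The log2 difference was 4.18 ± 0.54 from cortex (adjusted p = 3.2e-09) and 2.60 ± 0.49 from striatum (adjusted p = 9.3e-06). Dnah6 ran from 8.14 to 23.3 CPM (median 16.8) in cerebellum and from 0.942 to 2.62 CPM (median 1.65) in cortex (3.18 ± 0.41, adjusted p = 3.3e-09). Dnah7b, from 12.5 to 33.8 CPM in cerebellum and from 3.57 to 6.75 CPM in cortex, was higher by 2.06 ± 0.29 (adjusted p = 2.1e-08), also with no overlap. The lowest WT cerebellum library for Dnah11, Dnah6 and Dnah7b was that of mouse M754, which went against its label. Exons of Dnah11 and Dnah6 overlap genes on the other strand (Cdca7l and Gm20560), and reads of Dnah7a, Dnah7b and Dnah7c, near-identical copies, are uncertain.

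In the opposite direction, Dnah1 ran from 0.550 to 3.81 CPM (median 1.22) in WT cerebellum, from 8.45 to 17.0 CPM (median 11.3) in cortex and from 9.32 to 23.0 CPM (median 19.1) in striatum. It was lower in cerebellum by −2.85 ± 0.35 on the log2 scale from cortex (adjusted p = 1.0e-09) and −3.51 ± 0.36 from striatum (adjusted p = 4.7e-12). Drc1, a base subunit of the nexin-dynein link, ran from 2.34 to 4.22 CPM in cerebellum, from 16.5 to 23.1 CPM in cortex and from 20.01 to 34.5 CPM in striatum (−2.73 ± 0.14, adjusted p = 7.3e-23, and −3.18 ± 0.14, adjusted p = 2.3e-25). Neither gene's cerebellum libraries overlapped those of the other regions. Cfap45, which lies inside the doublet, was lower than in striatum (−2.45 ± 0.35, adjusted p = 4.3e-08). Rsph6a passed both tests, with 0 to 3 counts in each WT cerebellum library, and no size is given for it.

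Foxj1 was lower in cerebellum than in striatum (−0.87 ± 0.29, adjusted p = 0.0084) and higher than in cortex (0.70 ± 0.30, adjusted p = 0.041). Without the 4 libraries that went against their labels, the difference from cortex was 0.37 ± 0.20 (adjusted p = 0.11), so cerebellum and cortex were then not distinguished. Without those libraries, 32 members were called between cortex and striatum, 33 between cerebellum and cortex and 46 between cerebellum and striatum, where 48.9%, 59.5% and 66.0% of all genes were. Of these 28, 31 and 46 were the ones called with them, each with the same sign. Dnah11 lost its call between cortex and striatum (−0.83 ± 0.45, adjusted p = 0.12), and stayed higher in cerebellum than in cortex (4.32 ± 0.45, adjusted p = 8.1e-12). With the mouse as a replicate block, since the 3 libraries of a mouse are paired, 30, 33 and 48 members were called (47.3%, 56.1% and 65.8% of all genes), and the members higher in cortex than in striatum numbered 2.

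**Figure D2:**
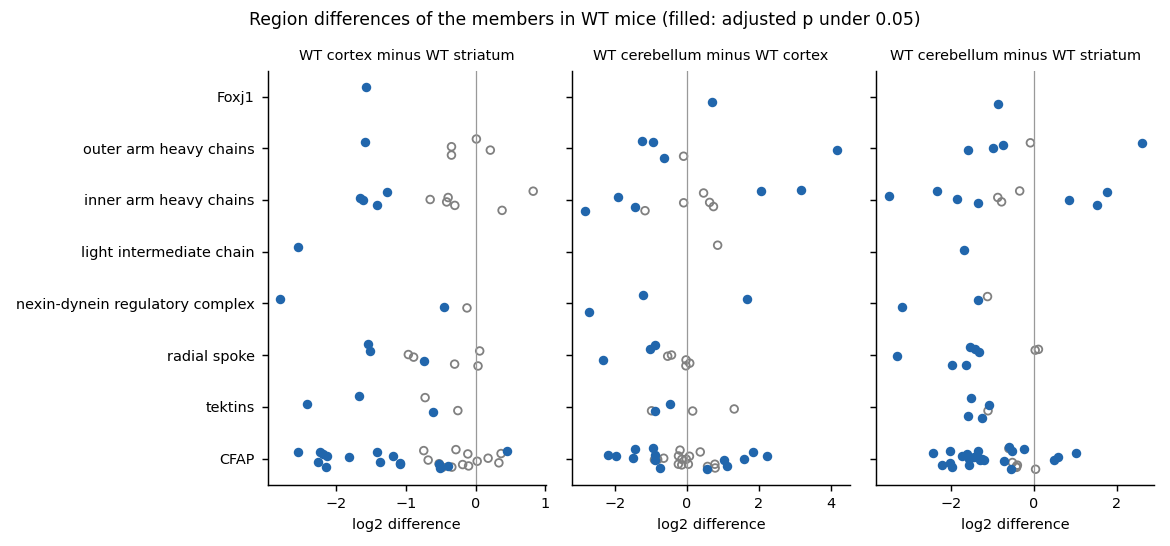
Log2 differences of the members between regions in WT mice, 1 panel per pair of regions, rows by subfamily; filled points have an adjusted p under 0.05. In the first panel nearly all filled points lie left of 0; in the panels with cerebellum, Dnah11 lies farthest right, at 4.18 from cortex and 2.60 from striatum.

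The genotype comparison asked whether these genes changed with reduced Mbd5. After adjustment over all genes tested, 0 members passed in any region by edgeR's quasi-likelihood test. In all genes, 0.0107% passed in cortex (2 of 18661), 0.00539% in striatum and 0.00551% in cerebellum (1 of 18546 and 1 of 18160). By DESeq2's Wald test, 3 members passed in cortex, Cfap44, Cfap43 and Cfap65, where 0.332% of all genes did (62 of 18661).

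At an unadjusted p under 0.05 (nominal significance), 23 of 58 members tested in cortex passed, 22 higher and 1 lower in Mbd5+/GT mice. This was 39.7%, where 8.47% of all genes tested passed, 3.96% higher and 4.51% lower. The median log2FC of the members was 0.26, with 51 of 58 positive, compared with 0.00 and 47.8% positive over all genes. The count depended on the fit. It was 10 without surrogate variables (3.43% of all genes), 9 with litter and sex in their place (4.11%), 6 without litter 2 (9.15%) and 5 without mouse M753 (5.74%). The members left out by the filter on low counts were Cfap73, Cfap77, Cfap97d1, Rsph6a and Tekt3.

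The 4 cortical members with the smallest p are described by library. Cfap44, a tether of an inner arm dynein, ran from 2.22 to 7.63 CPM (median 4.41) in WT and from 2.76 to 12.0 CPM (median 5.13) in Mbd5+/GT cortex. The groups overlapped widely, with 2 of 10 Mbd5+/GT mice above the highest WT mouse, and the log2FC of 0.46 ± 0.08 (p = 3.4e-05, adjusted p = 0.12 by edgeR) came from a fit with surrogate variables. Without them it was 0.35 ± 0.29 (unadjusted p = 0.24 by edgeR), so Cfap44 was then not nominally significant. Cfap43, which works with Cfap44, ran from 0.803 to 2.01 CPM (median 1.64) in WT and from 1.25 to 6.02 CPM (median 2.69) in Mbd5+/GT mice, 8 of 10 above the highest WT mouse (0.94 ± 0.22, adjusted p = 0.26). Dnali1 ran from 0.451 to 0.912 CPM (median 0.624) in WT and from 0.459 to 3.33 CPM (median 1.16) in Mbd5+/GT mice, 7 of 10 above (1.06 ± 0.27, adjusted p = 0.29). Cfap65, of the central apparatus, ran from 8.59 to 14.3 CPM (median 11.9) and from 10.2 to 26.1 CPM (median 15.3), 6 of 10 above (0.44 ± 0.11, adjusted p = 0.30).

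The fifth, Cfap157, had 1 to 13 counts in WT and 7 to 40 in Mbd5+/GT cortex (0.93 ± 0.26, adjusted p = 0.34). Drc7 had the highest log2FC of the members (1.46 ± 0.49, adjusted p = 0.44), from 0.520 to 1.56 CPM in WT (median 0.929) and from 0.426 to 6.06 CPM in Mbd5+/GT mice (median 1.72). Its lowest library was an Mbd5+/GT one, and 7 of 10 lay above the highest WT mouse. Dnah6, among the heavy chains, ran from 0.942 to 2.62 CPM and from 0.951 to 8.49 CPM (0.98 ± 0.31, adjusted p = 0.41). Drc1 was the 1 nominally lower member, from 16.5 to 23.1 CPM (median 19.9) in WT and from 15.1 to 21.3 CPM (median 17.2) in Mbd5+/GT mice (−0.16 ± 0.05, adjusted p = 0.40).

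Foxj1 did not reach nominal significance in cortex (0.31 ± 0.16, p = 0.072 and adjusted p = 0.64 by edgeR). Its libraries ran from 4.48 to 6.95 CPM (median 5.57) in WT and from 3.97 to 10.8 CPM (median 6.54) in Mbd5+/GT mice, with 4 of 10 above the highest WT mouse and the lowest value also in an Mbd5+/GT mouse. A 2-sided exact permutation test over 43758 splits of the mice gave p = 0.13 for the difference of 0.26 in log2 CPM, and p = 0.14 over the 3500 splits that keep each litter's numbers.

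Every structural subfamily held nominally higher members in cortex: 2 of 5 outer arm heavy chains (Dnah9 and Dnah11), 4 of 10 inner arm heavy chains (Dnah6, Dnah7b, Dnah10 and Dnah12), Dnali1, 2 of 3 regulatory complex genes (Drc3 and Drc7), 3 of 7 radial spoke genes tested (Rsph1, Rsph4a and Rsph9, all of the spoke head), 9 of 27 CFAP genes and 1 of 4 tektins (Tekt1). Their log2FC ran from 0.13 for Drc3 to 1.46 for Drc7. This was the fit with surrogate variables, in which 3.96% of all genes were nominally higher. Without surrogate variables 9 members were nominally higher (1.57% of all genes), and with litter and sex in their place 8 were (1.95%). Among other lists, 15 of 43 other motile cilium genes were nominally higher (median 0.18) and 0 lower, as were 5 of 13 regulators of multiciliated cells. Of 47 genes of the primary cilium and intraflagellar transport, 1 was higher and 1 lower (median 0.02).

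Markers of the ciliated cell types moved with the members in cortex. Of 12 ependymal markers tested, 8 were nominally higher (median 0.63), and of 12 choroid plexus markers, 11 were (median 1.57). The summed level of the 13 listed ependymal markers ran from 75.3 to 229 CPM in WT and from 124 to 304 CPM in Mbd5+/GT cortex. Its median was 155 CPM in WT and 138 CPM in Mbd5+/GT cortex, so the sum was not higher at the median. Nnat, Tppp3 and Tm4sf1 led this sum. The sum of the 12 choroid plexus markers ran from 248 to 559 CPM (median 351) in WT and from 205 to 2267 CPM (median 652) in Mbd5+/GT cortex. No marker of either list was at 0 in every library of a group. Ttr (transthyretin), the leading choroid plexus marker, ran from 4.31 to 217 CPM in WT and from 1.90 to 1196 CPM in Mbd5+/GT mice. Mbd5+/GT mice M755, M758, M764 and M766 were the only ones with a choroid plexus sum above 1000 CPM (2208, 2267, 1536 and 1311 CPM). Mouse M758 held the highest Mbd5+/GT value of 39 of 58 members.

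Without these 4 mice, 3 of 57 members were nominally significant (6.54% of all genes were), namely Cfap44 (0.35 ± 0.11) and Cfap65 (0.22 ± 0.09), both higher, and Drc1 (−0.15 ± 0.06). The median fell from 0.26 to 0.09 with 45 of 57 positive, Dnali1 was at 0.47 ± 0.27, Cfap43 at 0.44 ± 0.22 and Drc7 at 0.31 ± 0.34, and Foxj1 was at −0.08 ± 0.12. This fit held 6 Mbd5+/GT and 8 WT mice. Whether the presence of choroid plexus, ependyma or striatum in the dissected piece had a part in the difference between genotypes was not tested. The median difference of the members by litter was 0.22 in litter 1, 0.24 in litter 2 (with 1 WT mouse) and 0.05 in litter 3. Of the 58 members, 50, 43 and 34 were positive. These litters make up the groups of the main fit and are no separate support for it. The median difference was 0.16 in females and 0.14 in males.

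**Figure D3:**
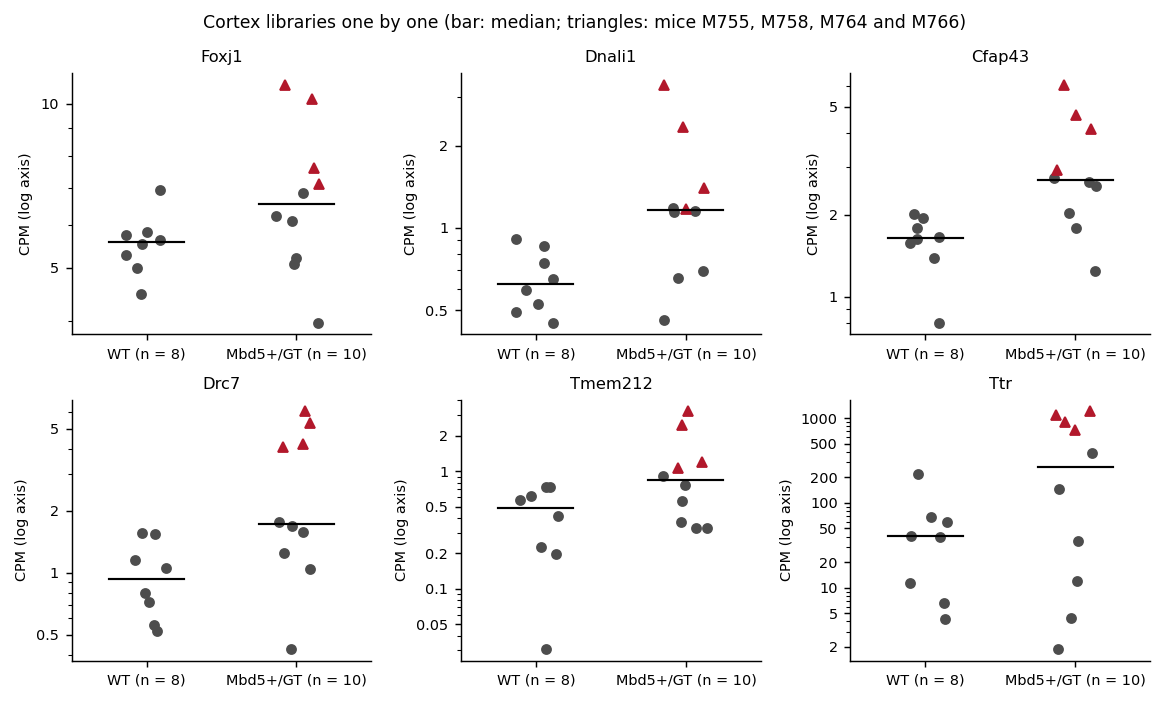
Cortex libraries one by one for 4 members, the ependymal marker Tmem212 and the choroid plexus marker Ttr, in CPM on a log axis; bars are medians, and triangles are Mbd5+/GT mice M755, M758, M764 and M766. The triangles are the highest Mbd5+/GT libraries in every panel but that of Dnali1, and the round points of both genotypes overlap in every panel.

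In striatum, where the members were most abundant, 0 of 61 tested were nominally significant by edgeR, compared with 7.44% of all genes (4.24% higher, 3.20% lower; DESeq2 also gave 0 adjusted calls). The median log2FC was 0.09, with 42 positive and 19 negative. Foxj1 ran from 9.06 to 25.7 CPM (median 15.2) in WT and from 9.20 to 23.6 CPM (median 16.3) in Mbd5+/GT mice, 2 nearly identical ranges. Its log2FC was 0.09 ± 0.13 by edgeR with surrogate variables. Without them, the difference in log2 CPM was −0.0077 (exact permutation p = 0.97). The smallest p belonged to Dnah7c (0.37 ± 0.19, p = 0.067 by edgeR), from 0.528 to 1.72 CPM in WT and from 0.695 to 2.33 CPM in Mbd5+/GT mice. Next were the dynein assembly gene Cfap300 (0.18 ± 0.10), the spoke gene Rsph6a (−0.59 ± 0.34), Cfap69 of the central apparatus (0.16 ± 0.09) and Rsph14 (0.51 ± 0.31). The litters differed in sign, with medians of −0.16, −0.20 and 0.35. Of 12 ependymal and 12 choroid plexus markers 0 were nominally significant, although the choroid plexus median was −1.32.

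In cerebellum, 2 of 55 members were nominally lower, 3.64%, where 2.75% of all genes were nominally significant, 0.964% higher and 1.78% lower, so the share was near the background. They were Cfap53, of the doublet interior (−0.40 ± 0.18, adjusted p = 1.00), from 0.611 to 1.88 CPM in WT (median 1.52) and from 0.188 to 1.82 CPM in Mbd5+/GT mice (median 1.18), and the spoke-associated Cfap61 (−0.40 ± 0.18), from 0.388 to 1.98 CPM (median 0.992) and from 0.233 to 2.07 CPM (median 0.593). Both pairs of groups overlapped over nearly their whole range, and without mice M754 and M755 neither passed. The median over the members was −0.10, with 44 of 55 negative and 11 positive, compared with 47.3% positive over all genes. Marker lists moved the same way. The 12 ependymal markers were all negative (median −0.30, 1 nominally lower), as were 11 of 12 choroid plexus markers (median −0.30) and the 6 cerebellum markers (median −0.34), and the part of these in the members' values was not tested. Dnah10 (−0.53 ± 0.27), Dnah5 (−0.28 ± 0.18) and Cfap52 (−0.51 ± 0.34) followed. Foxj1 ran from 3.89 to 21.8 CPM in WT (median 7.45) and from 3.77 to 29.1 CPM in Mbd5+/GT mice (median 6.20), with the top value of each group in mice M754 and M755. Its log2FC was −0.16 ± 0.14 by edgeR, and the difference in log2 CPM was −0.17 (exact permutation p = 0.66). Dnah11 ran from 8.95 to 43.7 CPM in WT and from 2.54 to 43.1 CPM in Mbd5+/GT cerebellum, its lowest values being in the same 2 mice.

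**Figure D4:**
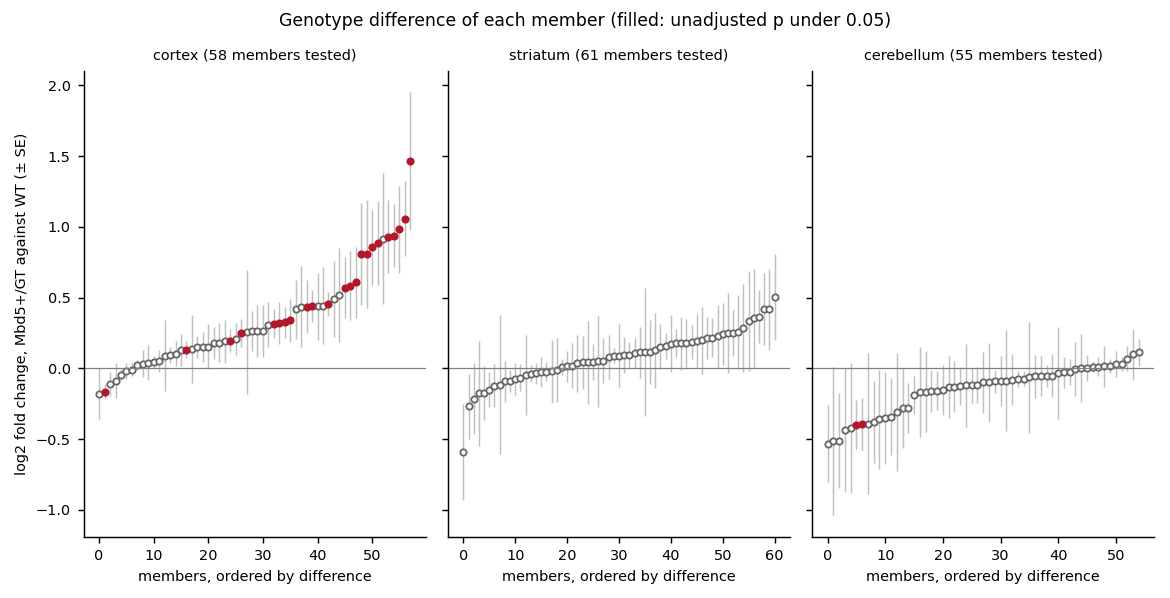
Log2FC (Mbd5+/GT minus WT) with its SE for each member tested in cortex, striatum and cerebellum, ordered by value; filled points have an unadjusted p under 0.05. In cortex 51 of 58 points lie above 0 and 23 are filled, in striatum none is filled, and in cerebellum 44 of 55 lie below 0 and 2 are filled.

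Whether the genotype difference itself varied by region was tested as an interaction in the fit over all libraries, without surrogate variables. By edgeR, 0 of 62 members passed after adjustment for any pair of regions, and neither did any of the 20477 genes tested. Nominally, 9 members had a lower genotype effect in cerebellum than in cortex (14.5%, compared with 1.11% of all genes). Among them were Drc7 (−2.17 ± 0.85), Dnali1 (−1.51 ± 0.53), Cfap52 (−1.51 ± 0.58), Cfap43 (−1.23 ± 0.48) and Dnah10 (−1.18 ± 0.50). Between cortex and striatum 3 members were nominally significant (4.84%, compared with 4.22%), Dnali1 (1.11 ± 0.51), Cfap157 (1.01 ± 0.41) and Cfap43 (0.94 ± 0.47). Between cerebellum and striatum 0 were (2.68% of all genes). Markers moved with the members. In cerebellum against cortex all 12 ependymal (4 nominally, median −0.80) and all 12 choroid plexus differences (3 nominally, median −2.30) were negative, and in cortex against striatum all 12 of each list were positive, 3 of each nominally (medians 0.75 and 1.77). Without the 4 libraries that went against their labels, 9 members were nominally lower in cerebellum than in cortex (1.49% of all genes passed), Drc7 at −2.16 ± 0.88 and Dnali1 at −1.47 ± 0.51. Between cortex and striatum 4 then passed (3.98% of all genes), Cfap157, Dnali1 and Drc7 (1.78 ± 0.87) higher and Rsph3a (−0.31 ± 0.15) lower, while Cfap43 did not. Between cerebellum and striatum 3 did (2.54% of all genes), Cfap61 (−0.77 ± 0.36), Dnah10 (−1.02 ± 0.50) and Rsph14 (−1.42 ± 0.63). After adjustment 0 members passed in this fit as well. These contrasts share libraries, and a difference between regions in the genotype effect was not established for any member.

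How closely the members varied together from library to library was described by Pearson's r of log2 CPM with Foxj1 over the 18 libraries of a region. These values rank genes and are given as a description, since the libraries share dissection and depth. The median r was 0.50 over 57 members in cortex, 0.58 over 60 in striatum and 0.58 over 54 in cerebellum. An r of at least 0.5 was reached by 52.6% of members in cortex, 66.7% in striatum and 57.4% in cerebellum, where 2.61%, 5.15% and 21.8% of all genes reached it. Without mice M754 and M755, the cerebellum gave 55.6% of members and 5.22% of all genes.

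The closest member over the 3 regions was Dnali1 (r = 0.85 in cortex, 0.91 in striatum, 0.71 in cerebellum), followed by Cfap126 (0.78, 0.87 and 0.66), Cfap43 (0.79, 0.84 and 0.68), Rsph1 (0.74, 0.87 and 0.69) and Dnah10 (0.71, 0.77 and 0.75). Of the genes with a printed upstream window, Dnah10 and Tekt1 (0.67, 0.85 and 0.56) had a half-site, while Dnah9 (0.42, 0.76 and 0.75) had none. Those windows were chosen by their genes' r with Foxj1. Drc1 and Cfap44, printed for other reasons and also with a half-site, had a mean r of 0.40 and 0.46 over the regions. No relation between half-site and r is drawn from this. A minority did not follow Foxj1. Cfap36, the most abundant member, had r = 0.19, −0.11 and 0.25, Cfap298, with its full X-box, 0.07, 0.26 and −0.16, and Rsph10b −0.15, 0.17 and −0.63. Drc1 had −0.02 in cortex, 0.36 in striatum and 0.86 in cerebellum.

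Dnah6 and Dnah11, the heavy chains that were high in cerebellum, changed sign there. Dnah6 had r = 0.81 in cortex and 0.75 in striatum but −0.69 in cerebellum, and Dnah11 0.62, 0.16 and −0.74. Cfap74 (−0.78) and Cfap53 (−0.64) were negative in cerebellum as well. Without mice M754 and M755, whose cerebellum libraries were high in Foxj1 and low in cerebellum markers, the values were −0.01 for Dnah6, −0.05 for Dnah11, −0.24 for Cfap74 and 0.38 for Cfap53. The negative values thus rested on those 2 libraries, and the remaining ones showed no relation of Dnah6 or Dnah11 with Foxj1 in cerebellum.

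Outside the members, the genes with the highest r with Foxj1 in cortex were Lrrc23 (0.91), a radial spoke protein, Mlf1 (0.87), Zfp474 (0.86), 1700007K13Rik (0.84) and Col8a2 (0.83). In striatum they were Morn3 (0.90), 1700024G13Rik (0.89), Ccdc40 (0.89), which sets the spacing of the axoneme, Odf3b (0.89) and Lgals3 (0.88). In cerebellum they were Erbb3 (0.95), Ccdc65 (0.95), a regulatory complex protein, Extl1 (0.95), Fstl1 (0.94) and Evpl (0.94). Marker genes of these cell types, 2 in number, were tested against Foxj1 over the 18 mice of each region, 6 relations in all, with 100000 permutations. The permutations treat the libraries of a region as exchangeable, although dissection differed between them. The ependymal marker Tmem212 gave r = 0.78 in cortex (adjusted p = 0.00024, Spearman's rho 0.68), 0.85 in striatum (adjusted p = 6.0e-05, rho 0.84) and 0.58 in cerebellum (adjusted p = 0.014, rho 0.72). The raw permutation p-values were 8.0e-05, 1.0e-05 (the smallest these permutations can give) and 0.012, and those of rho 0.0025, 2.0e-05 and 0.00095. With the 2 mice farthest from the median of Tmem212 left out, r was 0.69, 0.80 and 0.53. The mice were chosen by the marker and not by Foxj1. In cerebellum this was no check without mice M754 and M755, whose Tmem212 levels (1.16 and 0.753 CPM) lay within the range of the others. The choroid plexus marker Ttr gave r = 0.62 in cortex (raw permutation p = 0.0054, adjusted p = 0.0091, rho 0.51 with p = 0.033), 0.62 in striatum (raw p = 0.0061, adjusted p = 0.0091, rho 0.71 with p = 0.0015) and −0.07 in cerebellum (raw p = 0.80, adjusted p = 0.80, rho 0.18 with p = 0.47). Without the 2 mice farthest from the median of Ttr these were 0.54, 0.60 and −0.30. The relation with Tmem212 was positive in each region, and that with Ttr in cortex and striatum.

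**Figure D5:**
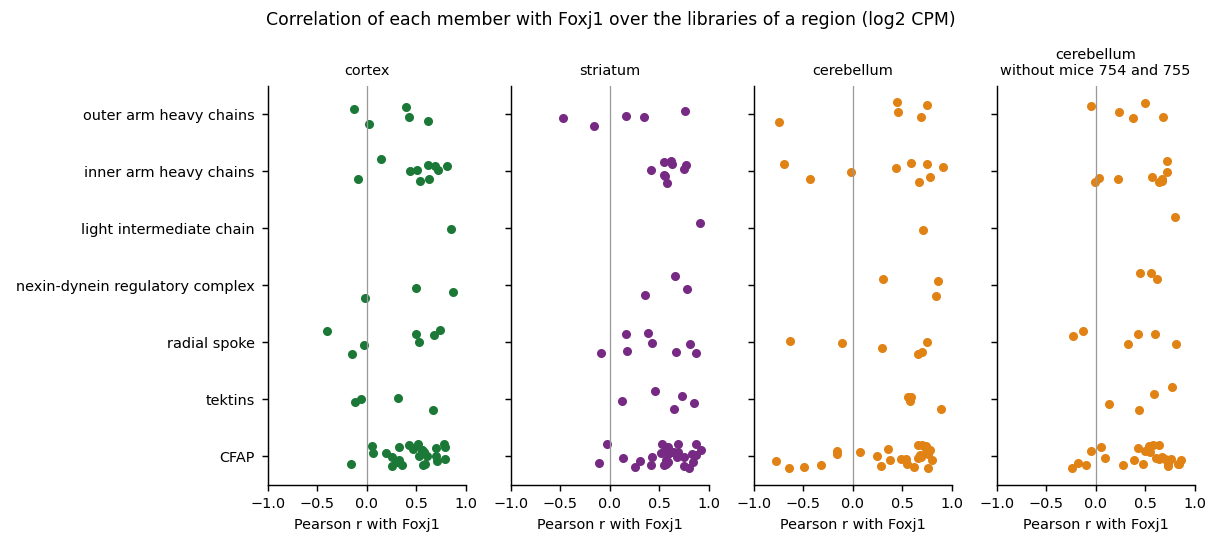
Pearson's r of each member with Foxj1 across the libraries of a region, rows by subfamily, with cerebellum also drawn without mice M754 and M755. Most points lie right of 0 in every panel, and the points of Cfap74 (−0.78), Dnah11 (−0.74) and Dnah6 (−0.69) at the left of the cerebellum panel move toward 0 in the last.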

How the data were processed

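Polyadenylated RNA of 54 libraries was analyzed. The deposited values are raw whole-number counts of reads per gene. The authors aligned reads with STAR 2.4.2 to GRCm38 (Ensembl release 83) and used its GeneCounts option; per the labels FastQC 0.10.1 was run. The strand column kept is not given in the sources used here, so overlapping genes are uncertain (27 members share exon bases with another gene), and multimapping reads were not counted. Counts for 92 ERCC spike-ins were left out, and of 47069 genes 46488 matched GENCODE M21. All columns were mapped to samples, and 2 WT striatum libraries labelled as repeated were kept. Depth is given in the report. No pair of libraries of 1 group agreed within counting noise (lowest chi-square per gene 8.26 over 219 pairs).

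A gene was kept in a region if at least 8 of 18 libraries had over 4 counts. Each region was scaled by TMM and modeled in edgeR 4.0.16 (R 4.3.3; quasi-likelihood, robust) with genotype and surrogate variables (sva 3.50.0; 4 in cortex, 4 in striatum, 2 in cerebellum), with Benjamini-Hochberg adjustment over all genes tested. Region differences and interactions came from a 6-group fit over 54 libraries without surrogate variables. Errors of log2FC are SE, those of levels SD. RPKM used the union of exons, and log2 CPM a prior count of 2. Scripts were tested on simulated data. DESeq2 1.42.0, other scalings, filters and covariates, and leaving out mice were alternatives. RefSeq gave the upstream sequences. Matplotlib 3.10.9 drew the plots.

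The 3 libraries of a mouse come from 1 animal, so mouse numbers pair the regions. Deviations from group means correlated with medians of 0.158 (cerebellum and cortex), 0.0931 (cortex and striatum) and 0.0607 (cerebellum and striatum) within a mouse, and of −0.0083, −0.0073 and −0.0062 between mice.

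The members, lists and alternatives were chosen with earlier results of these data known. Genes named by rule were Foxj1, the 3 members of each subfamily with the highest mean RPKM, the 5 with the smallest p per genotype contrast, the 5 called members with the largest difference per pair of regions, and the 5 non-members most like Foxj1 per region. Other genes were named after their values were seen. Upstream windows of Cfap126, Drc3, Dnali1 and Cfap298 were not shown whole because they overlap exons of other transcripts. Of the Cfap298 window, only the 30 bases with the X-box are printed. Foxj1 and Rsph1 had no window.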

Additional observations from a re-analysis of the deposited data

Results flagged for a closer look

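Highest or lowest libraries that stood apart from the rest of their group were looked for in 42 groups over 7 members. The measure was the gap to the nearest library as a share of the group's range. Of these groups 6 were picked out, each by its highest library. Chance gives about 1 in 20 for independent groups of normally distributed values, while these groups share libraries. In cerebellum, Foxj1 was at 29.1 CPM in Mbd5+/GT mouse M755 (next 11 CPM) and at 21.8 CPM in WT mouse M754 (next 10.5 CPM), the libraries with the lowest cerebellum marker sums and the highest Hox sums. Cfap44 was at 12.0 CPM in the cerebellum of WT mouse M761 (next 5.73 CPM). Drc7 was at 19.5 CPM in the striatum of Mbd5+/GT mouse M758 (next 9.75 CPM), which also had the highest choroid plexus sum of the Mbd5+/GT striatum libraries (6411 CPM). Dnah11 was at 6.22 CPM in the cortex (next 1.44 CPM) and at 15.6 CPM in the striatum (next 4.76 CPM) of WT mouse M754. The causes were not tested.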

How the results depend on the processing

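In cortex, the 23 nominally significant members fell to 9 with litter and sex in place of surrogate variables (4.11% of all genes), 10 with no surrogate variables (3.43%), 15 with no filter on low counts (7.84%), 6 without litter 2 (9.15%) and 3 without mice M755, M758, M764 and M766, an alternative chosen after seeing the data, as were all those that leave out libraries by their markers. Leaving out 1 mouse gave 5 to 30, with 5.37% to 11.3% of all genes; the count was 5 without mouse M753 (5.74%), 14 without M752, 12 without M754, 13 without M758, 15 without M761, 15 without M764, 11 without M765 and 12 without M766. Adjusted calls were 0 to 1 on leaving out a mouse and 3 by DESeq2 (Cfap44, adjusted p = 0.002; Cfap43, 0.025; Cfap65, 0.046), the cortical median was 0.14 to 0.31 and Foxj1 0.10 to 0.46, and Foxj1 was −0.084 without the 4 mice. In cerebellum the count of 2 became 0 with litter and sex, with no surrogate variables and without mice M754 and M755, and 1 without litter 2; leaving out 1 mouse gave 0 to 5, a median of −0.19 to −0.04 and Foxj1 of −0.23 to −0.07, and Foxj1 was 0.015 with litter and sex. In striatum the count was 0 to 4, the median 0.03 to 0.17 (−0.015 with no surrogate variables) and Foxj1 0.02 to 0.17 on leaving out 1 mouse; Foxj1 was −0.036 with litter and sex and −0.046 with no surrogate variables, and Cfap300 −0.070 without litter 2. The causes were not tested. In the main fits, 7.44% of all genes in striatum and 2.75% in cerebellum were nominally significant. Such shares are not given for the fits of these 2 regions that left out mice or litter 2. No result about the members is therefore drawn from their counts. Adjusted calls were 0 in striatum and cerebellum when any mouse was left out. With the mouse as a replicate block, 30 members were called between cortex and striatum (2 higher, 28 lower), 33 between cerebellum and cortex (9 higher, 24 lower) and 48 between cerebellum and striatum (7 higher, 41 lower), where 47.3%, 56.1% and 65.8% of all genes were, and 0 in each interaction. The block moved no total by over 1.5 times; the higher calls between cortex and striatum were 1 without it. Leaving aside single mice, 127 values of the main results kept their direction and their side of the threshold (counts within 1.5 times), 10 moved and 5 changed sign; for single genes 121 did, 3 newly passed and 1 changed sign. Members with under about 10 counts per library, such as Tekt3 and Rsph6a, cannot show moderate differences at this depth.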
